A study of Mus musculus with 8 samples.

Results

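Transcripts of the interferon response and of antigen presentation on class I molecules were measured by RNA sequencing in hearts of mice with a deletion of Elmsan1 directed at cardiomyocytes. A list of 41 genes was followed, chosen by symbol from what they are known for, and with earlier results of these data known. The genes followed were interferon-induced genes, subunits of the immunoproteasome, and genes that load peptides onto class I molecules. They are 41 of the 45706 genes in the deposited table, and all 41 were among the 15289 genes with enough counts to be tested. The hearts came from male mice aged 8 weeks. The knockout group (cKO, n = 4) had the genotype Elmsan1 fl/fl;aMHC-Cre+/-, in which both Elmsan1 alleles are flanked by loxP sites and Cre recombinase is made from the promoter of Myh6, a gene active in cardiomyocytes. The floxed group (n = 2) was Elmsan1 fl/fl without Cre, and the Cre group (n = 2) was aMHC-Cre+/-, whose label names no floxed allele, so that the cKO hearts share the floxed alleles with one control group and the Cre transgene with the other. Elmsan1, also called Mideas, is a scaffold subunit of a histone deacetylase complex. Heart RNA also holds the transcripts of vessel, connective tissue and immune cells, in which this Cre is not expected to act, and in such RNA fewer cells of a type cannot be told apart from less RNA per cell.

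Interferons are secreted proteins that bind receptors on the cell surface and, through Janus kinases, activate STAT factors. Type I interferon forms a complex with STAT2 and IRF9 in it, which binds the interferon-stimulated response element (ISRE) in promoters, while interferon gamma acts mainly through the gamma-activated site (GAS). The genes that follow restrict viruses, sense foreign nucleic acid, and raise the supply of peptides to class I molecules, which show fragments of a cell's own proteins to cytotoxic T cells. Cardiomyocytes in an unchallenged heart show little of this presentation, and endothelial cells and macrophages show more.

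Promoters are shown first because they carry the sequence elements by which these genes are usually grouped. RefSeq promoter windows of build GRCm38.p6, each of 250 bases before to 50 bases after a start, were found for 31 of the 41 genes. Each was searched on both strands for the ISRE, taken as GAAA and a second GAAA with any 2 bases between them, and for the GAS letters TTCNNNGAA, and overlapping matches were all kept. An ISRE match lay in the windows of 14 of the 31 genes and of 3.99% of the 27025 genes in the RefSeq table. A GAS match lay in 8 of the 31 and in 9.55% of all, and 4 of the 31 held both. The stretches below are the 160 bases before the start, printed 5′ to 3′ on the strand of the gene, with matches to either element in capitals. Isg15, Ifit1, Oas1a, Bst2, B2m and Gbp3 are shown as genes with an ISRE that rose in cKO, Irf1 for its single GAS, and Igtp as a gene that holds both and did not pass the test. They lie at chr4:156200819-156200978 (minus strand) for Isg15, chr19:34640729-34640888 (plus strand) for Ifit1, chr5:120907526-120907685 (minus strand) for Oas1a, chr8:71537473-71537632 (minus strand) for Bst2, chr2:122147527-122147686 (plus strand) for B2m, chr3:142559884-142560043 (plus strand) for Gbp3, chr11:53769854-53770013 (plus strand) for Irf1 and chr11:58199396-58199555 (plus strand) for Igtp.
Isg15: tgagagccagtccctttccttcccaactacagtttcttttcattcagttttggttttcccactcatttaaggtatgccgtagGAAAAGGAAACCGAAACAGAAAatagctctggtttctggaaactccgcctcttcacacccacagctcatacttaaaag
Ifit1: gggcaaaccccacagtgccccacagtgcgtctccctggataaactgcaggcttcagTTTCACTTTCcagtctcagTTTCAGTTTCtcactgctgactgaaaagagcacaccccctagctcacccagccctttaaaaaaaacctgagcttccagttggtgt
Oas1a: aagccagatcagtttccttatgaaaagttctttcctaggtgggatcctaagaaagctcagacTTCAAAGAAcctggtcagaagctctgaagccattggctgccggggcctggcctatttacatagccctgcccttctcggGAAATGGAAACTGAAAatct
Bst2: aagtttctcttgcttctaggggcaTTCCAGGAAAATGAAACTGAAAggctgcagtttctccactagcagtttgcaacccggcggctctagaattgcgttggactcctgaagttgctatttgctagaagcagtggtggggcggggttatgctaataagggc
B2m: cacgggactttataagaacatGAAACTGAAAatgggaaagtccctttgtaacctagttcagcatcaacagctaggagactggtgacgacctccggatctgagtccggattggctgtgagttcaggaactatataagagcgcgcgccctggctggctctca
Gbp3: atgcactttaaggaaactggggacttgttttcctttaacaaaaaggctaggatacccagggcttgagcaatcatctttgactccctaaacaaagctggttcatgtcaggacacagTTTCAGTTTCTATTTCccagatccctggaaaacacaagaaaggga
Irf1: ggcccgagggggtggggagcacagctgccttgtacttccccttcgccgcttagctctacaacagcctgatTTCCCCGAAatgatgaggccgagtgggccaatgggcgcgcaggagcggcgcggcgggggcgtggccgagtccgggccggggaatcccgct
Igtp: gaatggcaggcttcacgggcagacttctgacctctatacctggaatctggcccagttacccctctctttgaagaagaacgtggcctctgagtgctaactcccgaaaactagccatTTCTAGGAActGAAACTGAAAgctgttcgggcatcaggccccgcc
Isg15 held 3 overlapping ISRE matches between bases -78 and -57 from its start, and Ifit1 held 2 at -104 and -85. Oas1a held 2 overlapping ISRE matches between bases -20 and -5 and a GAS match at -98. Of the 14 genes with an ISRE match 11 rose in cKO, and of the 17 without one 15 rose. These calls are from the test described below, in which 25.6% of all tested genes rose. A match is a stretch of letters and was not tested for binding.

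RNA totals were 17509564 to 25833259 estimated counts per library, and mitochondrial transcripts took 22.08% to 29.29% of them. Elmsan1 itself (ENSMUSG00000042507) stood at 27.6 and 25.6 CPM in the floxed hearts, 28.6 and 25.2 CPM in the Cre hearts and 15.2, 15.5, 15.3 and 12 CPM in cKO hearts 1 to 4. CPM values are counts brought to a common library total, after edgeR's default (TMM) scaling of the libraries. The labels do not say which part of the gene is deleted, and reads from the rest of it, and from cells other than cardiomyocytes, still count. Every cKO heart lay under every control heart, and the fall was 1.85-fold (log2 -0.89, SE 0.11; edgeR adjusted p = 8.94e-05, from its quasi-likelihood F test and Benjamini-Hochberg's method over 15289 genes). That test, at an adjusted p of 0.05, stands behind every call below, and errors of levels are SDs. Unless another contrast is named, cKO was set against the mean of both control groups, each with equal weight. The labels number the libraries of each genotype without saying more of their source, so a p value here reflects differences among these libraries, which may be technical.

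Of the 41 genes 34 rose and 0 fell, where 25.6% of all tested genes rose, 26.5% fell and 52.1% were called in either direction. The 7 others were Ifih1, Zbp1, Ifit2, Trim25, Gbp7, Igtp and Iigp1. The median log2 fold change was 0.86 over the 41 genes and 0.04 over all genes tested. In 28 of the 41 all 4 cKO values lay above all 4 control values, a pattern that 23.4% of tested genes had, and in 0 of the 41 all cKO values lay below (25.9% of all). The rises ran from 1.22-fold for Lgals3bp to 3.02-fold for Oas2.

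**Figure D1:**
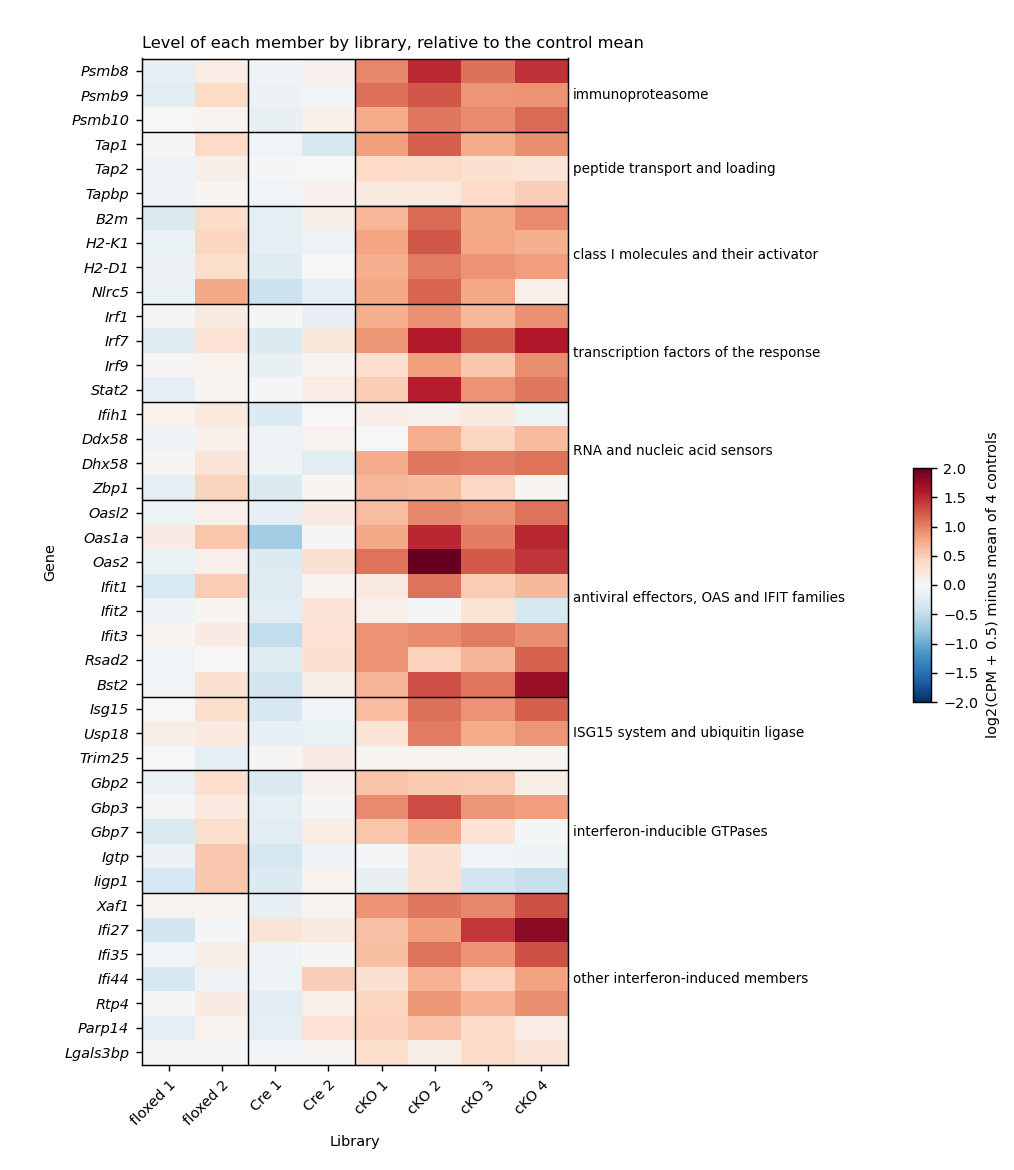
Level of each of the 41 genes (rows, grouped by role) in each of the 8 libraries (columns), as log2(CPM + 0.5) minus the mean of the 4 control libraries; red is above that mean and blue below. All 4 cKO columns are above that mean in every row except Ifih1, Ifit2, Gbp7, Igtp and Iigp1, and floxed replicate 2 is the reddest control column.

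The 3 immunoproteasome subunits rose together. These catalytic subunits replace the standard ones after interferon and change which peptides the proteasome cuts. Psmb8 (ENSMUSG00000024338, GRCm38 chromosome 17, 34197721 to 34201454, plus strand) stood at 8.44 and 10.7 CPM in floxed, 9.04 and 10.1 CPM in Cre and 18.99, 27.6, 20.98 and 26.9 CPM in cKO hearts. The groups were far apart, with the lowest cKO heart above the highest control, and the rise was 2.48-fold (log2 1.31, SE 0.14; edgeR adjusted p = 5.34e-05). Psmb9 was at 4.88 and 7.76 CPM in floxed, 5.24 and 5.51 CPM in Cre and 12.9, 14.3, 11.1 and 11.2 CPM in cKO hearts. Psmb10 was at 26.7 and 27.8, 23.96 and 28.7 and 45.2, 56.2, 51.9 and 59.2 CPM in the same order of groups. Neither gene had overlapping groups, and the rises were 2.12-fold and 1.99-fold (edgeR adjusted p = 0.000234 and 4.33e-05). Per kilobase of the longest transcript, Psmb10 was the most abundant of the 3 in control hearts at 20.4 CPM per kb, before Psmb8 at 5.01 and Psmb9 at 2.03 CPM per kb. The genes Psmb9 and Tap1 overlap by 212 bases on opposite strands, and no source used here gives the strand setting of the counts.

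The standard subunits that these replace rose in 2 of 3 cases. Psmb5, the partner of Psmb8, rose 1.599-fold, from 80.9 ± 3.84 to 129 ± 7.95 CPM (SD, n = 4 each; edgeR adjusted p = 9.38e-05), and was not called with an offset for length and GC (log2 0.03; edgeR adjusted p = 0.745). That offset is a correction per library for how counts vary with a gene's transcript length and GC content. Psmb6, the partner of Psmb9, rose 1.71-fold, and Psmb7, the partner of Psmb10, was not called at 128 ± 8.42 and 122 ± 10.6 CPM, with a log2 fold change of -0.07 that was above 0 under upper-quartile scaling, under library size alone, and with the offset. The ratio of each inducible subunit to its partner, in CPM per kb, was then compared, a measure chosen after the values had been seen. Psmb8 to Psmb5 was 0.0484 and 0.0605 in floxed, 0.0567 and 0.0574 in Cre and 0.0745, 0.100, 0.0774 and 0.0910 in cKO hearts. Psmb10 to Psmb7 was 0.463 and 0.439 in floxed, 0.441 and 0.471 in Cre and 0.758, 1.14, 0.931 and 0.992 in cKO hearts. Neither ratio had overlapping groups, and cKO was higher by 0.62 and 1.06 on the log2 scale (exact two-sided permutation tests over 70 splits, p = 0.0286 each, the smallest this design allows; 0.0429 each after Benjamini-Hochberg adjustment over 3 ratios). Psmb9 to Psmb6 overlapped between groups, at 0.0191 to 0.0328 in controls and 0.0246 to 0.0350 in cKO hearts (log2 difference 0.33, exact permutation p = 0.171, also 0.171 after adjustment). With the offset for length and GC the 3 log2 differences were 1.06, 0.43 and 0.61 for the pairs of Psmb8, Psmb10 and Psmb9.

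**Figure D2:**
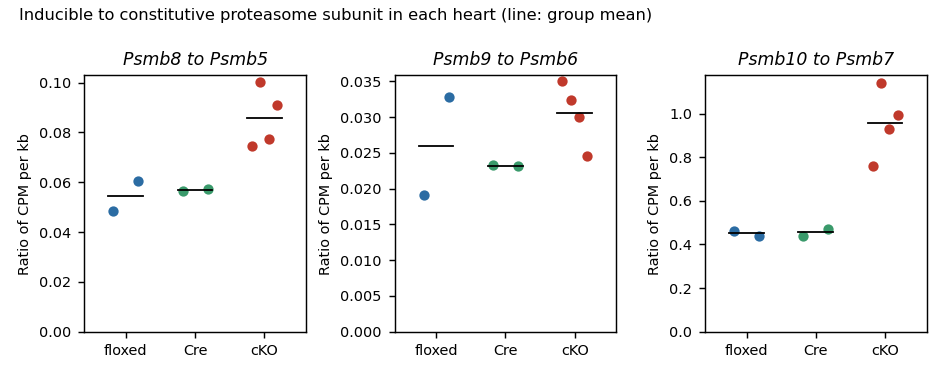
Ratio of each inducible proteasome subunit to the standard subunit it replaces (y axis, ratio of CPM per kb, from 0) in the floxed, Cre and cKO hearts (x axis); points are hearts and lines group means. Psmb8 to Psmb5 and Psmb10 to Psmb7 separate the groups, and Psmb9 to Psmb6 does not.

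All 3 genes of peptide transport and loading rose, by unequal amounts. Tap1 and Tap2 form the pump that carries peptides into the endoplasmic reticulum, and Tapbp (tapasin) holds the empty class I molecule at that pump. Tap1 stood at 9.89 and 13.5 CPM in floxed, 9.64 and 7.97 CPM in Cre and 18.2, 23.6, 17.2 and 19.7 CPM in cKO hearts, a rise of 1.94-fold (log2 0.95, SE 0.14; edgeR adjusted p = 0.00025). Tap2 stood at 27.7 and 31.8, 28.4 and 29.2 and 38.8, 38.1, 36.4 and 35.4 CPM in the same order. Its groups did not overlap, and it rose 1.27-fold (log2 0.34, SE 0.08; edgeR adjusted p = 0.00528). Tapbp rose 1.25-fold, from 66.3 ± 3.63 to 83.1 ± 8.51 CPM (SD, n = 4 each; edgeR adjusted p = 0.0134). Tap2 and Tapbp were not called with the offset for length and GC (log2 0.17 and 0.10; edgeR adjusted p = 0.137 and 0.391), and Tapbp was not called without floxed replicate 1 or Cre replicate 1 either (edgeR adjusted p = 0.0714 and 0.0583). Tapbp shares 3422 bases with Zbtb22 on the same strand, and its estimates had decimals in 3 libraries, so its value is uncertain.

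Class I molecules rose, and per kilobase they were the most abundant of the 41 genes. B2m, the light chain that every class I molecule needs (ENSMUSG00000060802, chromosome 2, 122147686 to 122153083, plus strand), stood at 109.7 and 172 CPM in floxed, 116 and 146 CPM in Cre and 212, 293, 229 and 257 CPM in cKO hearts. H2-K1, a classical class I heavy chain, stood at 104 and 153, 98.8 and 106 and 197, 268, 195 and 187 CPM in the same order. H2-D1, the other classical heavy chain, stood at 127 and 177, 117 and 139 and 229, 284, 256 and 246 CPM. In all 3 genes floxed replicate 2 was the highest control and cKO replicate 2 the highest cKO heart, and the groups did not overlap. The rises were 1.82-fold for B2m, 1.85-fold for H2-K1 and 1.82-fold for H2-D1 (log2 0.87, 0.89 and 0.87, SE 0.16, 0.15 and 0.12; edgeR adjusted p = 0.00101, 0.000628 and 0.00019). Per kilobase, B2m held 158 CPM per kb in control hearts, before H2-D1 at 66.5 and H2-K1 at 61.5 CPM per kb. Class I genes are close copies of each other, and the estimates of H2-D1 had decimals in all 8 libraries and those of H2-K1 in 5, so reads may have been split between copies.

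Nlrc5, the activator of class I transcription, was low and variable. It stood at 3.21 and 6.34 CPM in floxed, 2.51 and 3.06 CPM in Cre and 6.42, 8.55, 6.46 and 3.85 CPM in cKO hearts. The groups overlapped, since floxed replicate 2 lay above cKO replicate 4 and close to cKO replicates 1 and 3. The call (log2 0.79, SE 0.27; edgeR adjusted p = 0.0322) was lost without any one of cKO replicates 1, 2 and 3, floxed replicate 1, Cre replicate 1 or Cre replicate 2 (edgeR adjusted p between 0.0641 and 0.107), and under limma voom and pooled controls.

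Of the 41 genes 7 lie in the major histocompatibility complex on chromosome 17 (GRCm38, 33915899 to 35267499), and all 7 rose: Tapbp, H2-K1, Psmb9, Tap1, Psmb8, Tap2 and H2-D1. The same interval, chosen after the values had been seen, held 67 other tested coding genes, of which 39 rose and 6 fell (58.21% higher, where 25.6% of all tested genes were). Their median log2 fold change was 0.58. With the offset for length and GC 19 of them rose (28.36%, where 22.5% of all tested genes did), with a median of 0.25. These neighbours had a median longest transcript of 2005 bases and a median GC content of 57.68%.

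Of the transcription factors that carry the interferon signal, all 4 on the list rose. Irf7, which drives type I interferon genes and is itself induced by interferon (ENSMUSG00000025498, chromosome 7, 141262706 to 141266481, minus strand), stood at 7.03 and 10.5 CPM in floxed, 6.95 and 10.02 CPM in Cre and 16.04, 26.3, 20.2 and 26.9 CPM in cKO hearts. It had the largest rise of the 4, at 2.605-fold (log2 1.38, SE 0.20; edgeR adjusted p = 0.00038), and cKO replicates 2 and 4 were the highest. Stat2, a subunit of the ISRE-binding complex, stood at 15.2 and 17.5, 16.7 and 19.04 and 24.4, 51.4, 32.2 and 36.1 CPM. Irf9, its DNA-binding partner, stood at 16.8 and 17.3, 14.8 and 17.1 and 21.04, 29.9, 24.3 and 31.9 CPM. Irf1, a factor induced by interferon gamma that activates class I genes, stood at 16.1 and 18.1, 15.5 and 14.2 and 26.8, 30.3, 25.3 and 30.5 CPM. None of these 3 had overlapping groups, and the rises were 2.11-fold for Stat2, 1.63-fold for Irf9 and 1.77-fold for Irf1 (log2 1.08, 0.70 and 0.82, SE 0.20, 0.13 and 0.10; edgeR adjusted p = 0.00198, 0.0013 and 8.17e-05). In Stat2 cKO replicate 2 stood well above the other cKO hearts, and the spread in cKO (SD 11.3 CPM) was wider than in controls (SD 1.601 CPM).

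Sensors of nucleic acid rose in 2 of 4 cases. Dhx58 (LGP2), a cytosolic RNA-binding helicase that tunes the other RNA sensors (ENSMUSG00000017830, chromosome 11, 100694884 to 100704271, minus strand), stood at 1.46 and 1.77 CPM in floxed, 1.29 and 1.15 CPM in Cre and 2.68, 3.46, 3.42 and 3.54 CPM in cKO hearts. It was low, but every cKO heart lay above every control heart, and it went up 2.33-fold (log2 1.22, SE 0.20; edgeR adjusted p = 0.000553). Ddx58 (RIG-I), which senses the ends of viral RNA, stood at 11.9 and 13.4, 11.5 and 13.1 and 12.6, 20.9, 16.9 and 19.6 CPM, so that cKO replicate 1 lay within the controls and the other 3 cKO hearts above them. Its rise of 1.41-fold (edgeR adjusted p = 0.0184) was not called without cKO replicate 2, floxed replicate 1 or Cre replicate 1 (edgeR adjusted p = 0.0535, 0.0745 and 0.0684). Ifih1 (MDA5), the sensor of long double-stranded RNA, stood at 9.595 and 10.5, 7.44 and 9.02 and 9.99, 9.63, 10.4 and 8.53 CPM and was not called, with a log2 fold change of 0.09 (SE 0.12; edgeR adjusted p = 0.566). The groups of Ifih1 overlapped throughout, and it was called only with the offset for length and GC (log2 0.44; edgeR adjusted p = 0.00723). Zbp1, a sensor of Z-form nucleic acid that can start necroptosis, was the least abundant of the 41 per kilobase, at 0.251 CPM per kb in controls, and was not called at 0.835 ± 0.318 CPM in controls and 1.297 ± 0.341 CPM in cKO hearts (SD, n = 4 each; log2 0.65, SE 0.35; edgeR adjusted p = 0.142).

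Antiviral effectors rose in 7 of 8 cases, and the largest rise of the 41 genes was here. The 2′,5′-oligoadenylate synthetases make the messenger that switches on RNase L. Oas2 (ENSMUSG00000032690, chromosome 5, 120730333 to 120749853, minus strand) stood at 6.81 and 8.11 CPM in floxed, 6.11 and 9.42 CPM in Cre and 16.6, 35.9, 18.3 and 21.02 CPM in cKO hearts. Its rise was 3.02-fold, or 1.60 on the log2 scale (SE 0.27; edgeR adjusted p = 0.00122), and without cKO replicate 2, its highest heart, the log2 fold change was 1.30. Oas1a stood at 2.699 and 3.68, 1.25 and 2.31 and 4.31, 7.61, 5.31 and 7.62 CPM. Cre replicate 1 was its lowest heart and floxed replicate 2 its highest control, the groups did not overlap, and it rose 2.63-fold (log2 1.40, SE 0.25; edgeR adjusted p = 0.000892). Oasl2, a relative that also carries ubiquitin-like domains, stood at 9.38 and 10.9, 8.998 and 11.3 and 15.7, 20.2, 19.2 and 21.9 CPM and rose 1.91-fold (edgeR adjusted p = 0.000187). The estimates of Oas1a had decimals in all 8 libraries, and it has close copies beside it in the genome.

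The IFIT proteins bind foreign RNA and block its translation, and the 3 on the list, neighbours on chromosome 19, were called in 2 of 3 cases. Ifit3 stood at 7.796 and 8.597 CPM in floxed, 5.24 and 9.42 CPM in Cre and 14.5, 15.1, 16.1 and 14.9 CPM in cKO hearts. The cKO values were close to each other and above all controls, and the rise was 1.97-fold (log2 0.97, SE 0.16; edgeR adjusted p = 0.000477). Ifit1 stood at 4.33 and 8.01, 4.48 and 5.76 and 6.26, 12.2, 7.96 and 8.91 CPM, with floxed replicate 2 above 2 of the 4 cKO hearts. Its rise of 1.58-fold (log2 0.66, SE 0.24; edgeR adjusted p = 0.0418) was lost without any one of cKO replicates 2, 3 and 4, floxed replicate 1, Cre replicate 1 or Cre replicate 2 (edgeR adjusted p between 0.0565 and 0.137) and without the filter on low counts. Ifit2 stood at 11.5 and 12.6, 10.3 and 14.9 and 13.2, 11.9, 14.9 and 9.71 CPM, with full overlap, and its log2 fold change was 0.01 (SE 0.16; edgeR adjusted p = 0.956). A missed threshold does not show that levels were equal. The estimates of Ifit3 had decimals in all 8 libraries, and it has a near-identical neighbour, Ifit3b.

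Rsad2 and Bst2 act on enveloped viruses. Rsad2 (viperin), which makes a chain-terminating nucleotide, stood at 13.8 and 14.5 CPM in floxed, 12.04 and 17.8 CPM in Cre and 27.3, 19.96, 23.2 and 33.4 CPM in cKO hearts, and rose 1.79-fold (edgeR adjusted p = 0.00224). Bst2 (tetherin), which holds budding virus at the membrane, stood at 15.2 and 19.6, 12.04 and 17.1 and 25.6, 39.03, 33.8 and 53.5 CPM. Neither gene had overlapping groups. The rise of Bst2 was 2.395-fold (log2 1.26, SE 0.23; edgeR adjusted p = 0.00192) and 0.58 on the log2 scale with the offset for length and GC (edgeR adjusted p = 0.0231).

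In the ISG15 system the modifier and its protease rose, while Trim25, a ubiquitin ligase listed beside them, was not called. Isg15, a ubiquitin-like protein joined to other proteins after interferon (ENSMUSG00000035692, chromosome 4, 156199424 to 156200818, minus strand), stood at 2.699 and 3.54 CPM in floxed, 2.05 and 2.56 CPM in Cre and 4.37, 6.27, 5.39 and 6.78 CPM in cKO hearts. Usp18, which removes it and also dampens the type I receptor, stood at 2.998 and 3.19, 2.39 and 2.46 and 3.37, 6.08, 4.92 and 5.45 CPM. The lowest cKO heart, replicate 1, lay only just above the highest control in Usp18 and clearly above it in Isg15. The rises were 2.14-fold and 1.81-fold (log2 1.10 and 0.86, SE 0.19 and 0.20; edgeR adjusted p = 0.000703 and 0.00407), and that of Isg15 was 0.51 on the log2 scale with the offset for length and GC. Trim25, the ubiquitin ligase that activates RIG-I, stood at 36.2 and 31.7, 37.02 and 40.9 and 37.6, 38.04, 37.6 and 37.4 CPM. The cKO hearts lay inside the range of the controls and were almost equal to each other, and no change was called (log2 0.05, SE 0.08, edgeR adjusted p = 0.63). With the offset for length and GC it was called (log2 0.32; edgeR adjusted p = 0.00729).

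The interferon-inducible GTPases, which attack membranes around intracellular pathogens, rose in 2 of 5 cases. Gbp3, a guanylate-binding protein (ENSMUSG00000028268, chromosome 3, 142560026 to 142573209, plus strand), stood at 10.2 and 11.99 CPM in floxed, 9.15 and 10.6 CPM in Cre and 20.6, 26.5, 19.6 and 19.1 CPM in cKO hearts. Its groups were well apart, and it rose 2.05-fold (log2 1.04, SE 0.13; edgeR adjusted p = 0.0001). Gbp2, its neighbour, stood at 12.3 and 17.2, 11.1 and 14.4 and 20.4, 19.8, 19.5 and 14.8 CPM, with cKO replicate 4 among the controls. Its rise of 1.36-fold (edgeR adjusted p = 0.0274) was lost without cKO replicate 1, 2 or 3, floxed replicate 1 or Cre replicate 1 (edgeR adjusted p between 0.0621 and 0.125). Gbp7, the third of this cluster, stood at 13.5 and 21.3, 14.2 and 18.3 and 24.5, 28.3, 20.1 and 16.1 CPM, without a call at a log2 fold change of 0.40 (SE 0.20; edgeR adjusted p = 0.12). It was called without cKO replicate 4 or floxed replicate 2 (edgeR adjusted p = 0.0308 and 0.0453), under upper-quartile scaling and library size alone, and with the offset, whose log2 fold change was 0.76 (edgeR adjusted p = 0.00571).

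Igtp and Iigp1, immunity-related GTPases that answer mainly to interferon gamma, were not called. Igtp stood at 11.1 and 17.7 CPM in floxed, 9.34 and 11.3 CPM in Cre and 11.6, 15.02, 11.5 and 11.3 CPM in cKO hearts. Iigp1 stood at 27.2 and 50.5, 28.6 and 36.6 and 31.1, 43.2, 26.5 and 25.02 CPM. In both genes floxed replicate 2 was the highest of all 8 hearts and cKO replicate 2 the highest cKO heart. The log2 fold changes were 0.02 (SE 0.16) and -0.18 (SE 0.24), and neither was called (edgeR adjusted p = 0.922 and 0.558). Igtp shares 7974 bases with Irgm2 on the same strand, and its estimates had decimals in 4 libraries, so its count is uncertain.

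The other 7 interferon-induced genes all rose. Xaf1, an antagonist of the apoptosis inhibitor XIAP (ENSMUSG00000040483, chromosome 11, 72301629 to 72313733, plus strand), stood at 7.03 and 6.88 CPM in floxed, 5.92 and 6.86 CPM in Cre and 12.9, 14.4, 13.4 and 16.7 CPM in cKO hearts. Its controls varied little and the rise was 2.16-fold (log2 1.11, SE 0.12; edgeR adjusted p = 5.01e-05). Ifi27, a small membrane protein, stood at 14.6 and 18.7, 23.01 and 21.8 and 29.2, 34.4, 52.2 and 68.5 CPM. The cKO hearts spread widely, lowest in replicate 1 and highest in replicate 4, all above the controls, and the rise was 2.395-fold (log2 1.26, SE 0.27; edgeR adjusted p = 0.00587). Ifi35, which binds the STAT-interacting protein NMI, stood at 11.1 and 12.6, 10.8 and 11.7 and 17.7, 25, 22.01 and 28.5 CPM and rose 2.02-fold (edgeR adjusted p = 0.000187). Rtp4, a chaperone of receptors that also binds RNA, rose 1.73-fold, from 5.61 ± 0.712 to 9.67 ± 1.5 CPM (SD, n = 4 each; edgeR adjusted p = 0.00128).

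Ifi44, Parp14 and Lgals3bp rose in calls that single libraries could end. Ifi44, a cytosolic protein of the response, stood at 2.27 and 2.8 CPM in floxed, 2.73 and 4.36 CPM in Cre and 3.79, 5.09, 4.24 and 5.56 CPM in cKO hearts, with Cre replicate 2 above 2 of the cKO hearts. Parp14, an ADP-ribosyltransferase, stood at 23.2 and 27.3, 22.5 and 31.7 and 36.03, 38.7, 33.7 and 28.7 CPM, also with Cre replicate 2 above the lowest cKO heart. Lgals3bp, a secreted glycoprotein that binds galectin-3, stood at 25.8 and 24.8, 24.4 and 26.2 and 32.4, 27.8, 33.01 and 30.3 CPM, without overlap. The rises were 1.57-fold, 1.31-fold and 1.22-fold (log2 0.65, 0.39 and 0.29, SE 0.20, 0.13 and 0.09; edgeR adjusted p = 0.021, 0.0267 and 0.0183). Each call was lost without some libraries: Ifi44 without cKO replicate 2 or 4, floxed replicate 1 or Cre replicate 1 (edgeR adjusted p between 0.0503 and 0.086), and Parp14 without cKO replicate 1 or 2, floxed replicate 1 or Cre replicate 1 (between 0.0559 and 0.115). Lgals3bp was not called without cKO replicate 3, either floxed replicate or Cre replicate 1 (edgeR adjusted p between 0.0503 and 0.0767), nor with the offset for length and GC (log2 0.02; edgeR adjusted p = 0.852).

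**Figure D3:**
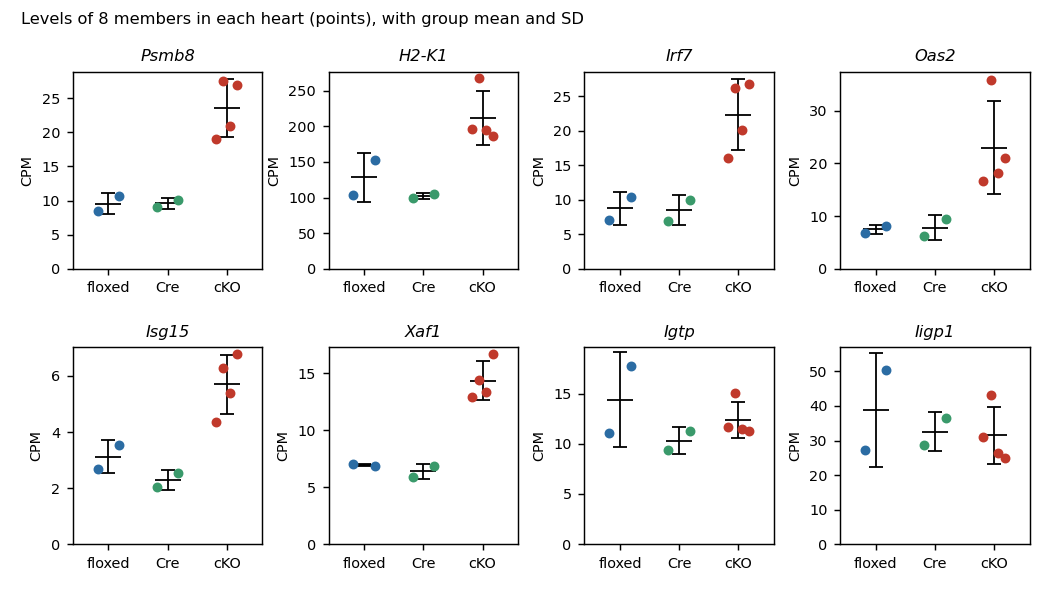
Level in CPM (y axes, from 0) of 8 of the genes in the floxed, Cre and cKO hearts (x axis); points are hearts, and bars show the group mean and SD. In Psmb8, H2-K1, Irf7, Oas2, Isg15 and Xaf1 every cKO heart lies above every control heart, and in Igtp and Iigp1 the groups overlap.

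Most of the genes also rose against each control group alone. Against floxed hearts 29 of the 41 genes rose and 0 fell, where 19.8% of all tested genes rose, 23.1% fell and 42.9% were called in either direction. Against Cre hearts 29 rose and 0 fell, where 19.6% of all rose, 22.8% fell and 42.4% were called. The same 26 genes rose in both, and both comparisons share the cKO hearts. Tapbp, Ifi44 and Parp14 were called against floxed only, and Nlrc5, Ddx58 and Gbp2 against Cre only, while Ifit1 and Lgals3bp were called against the mean of both groups and against neither alone. The median log2 fold change of the 41 genes was 0.74 against floxed and 0.93 against Cre. The widest gap between both comparisons was in Oas1a, with a log2 fold change of 0.97 against floxed (SE 0.31; edgeR adjusted p = 0.027) and 1.83 against Cre (SE 0.33; edgeR adjusted p = 0.00152). Nlrc5 followed, at 0.40 against floxed and 1.18 against Cre.

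The difference of both comparisons is Cre against floxed, and in it 0 of the 41 genes were called, where 0.0981% of all tested genes were, 0.00654% higher and 0.0916% lower. Before adjustment, at a threshold of 0.05, edgeR and DESeq2 each had 1 gene, Oas1a, and limma voom had 0. Of the 41 log2 fold changes 11 were above 0, with a median of -0.12. With 2 hearts in each control group, these counts depended on single libraries. Without floxed replicate 1, and so with only floxed replicate 2 left, 8 of the 41 genes rose against floxed (8.57% of all tested genes), and without floxed replicate 2, 20 did (8.38% of all). Without Cre replicate 1, 16 rose against Cre (11.3% of all), and without Cre replicate 2, 22 did (9.15% of all). In these fits the lone control heart was assumed to vary like the other groups.

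**Figure D4:**
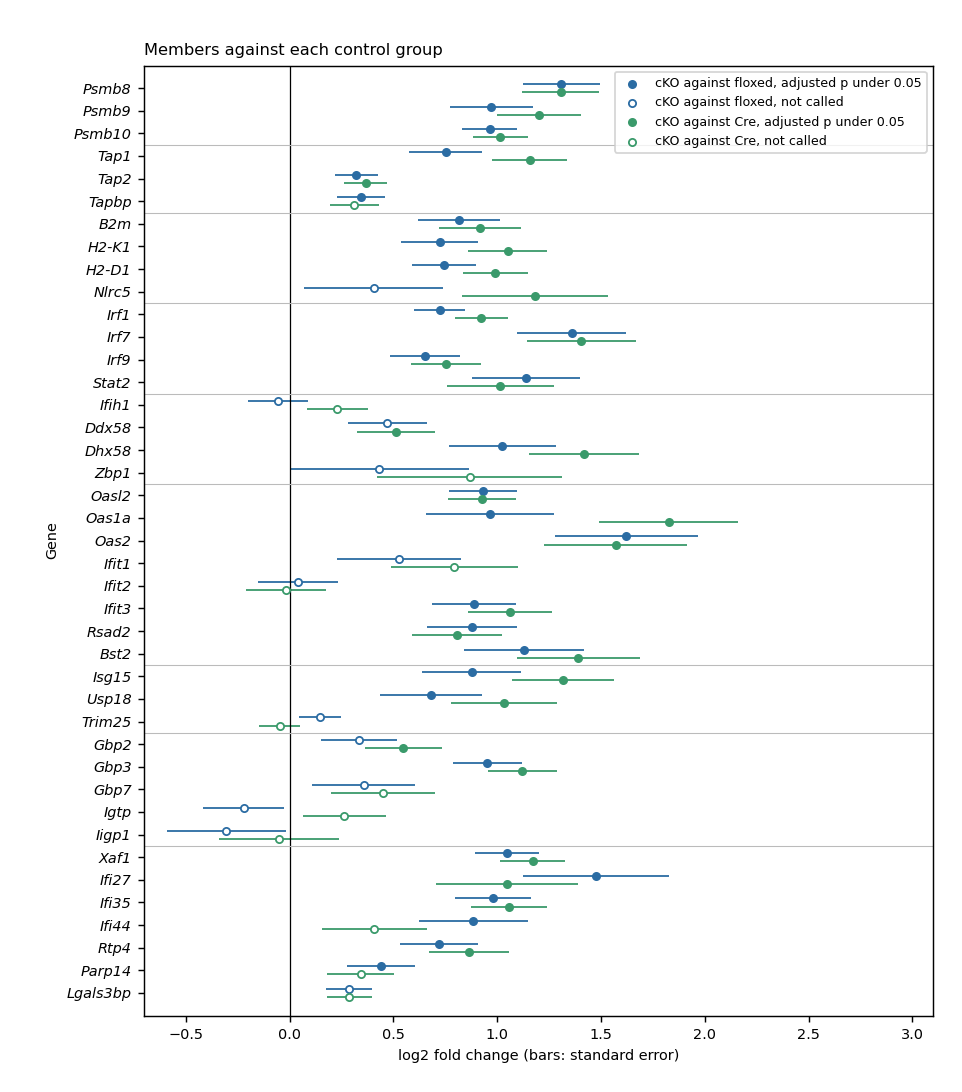
Log2 fold change of each of the 41 genes (rows) in cKO against floxed (blue) and against Cre hearts (green), with standard errors as bars; filled points have an adjusted p under 0.05 in edgeR. Most points lie between 0.5 and 1.5 for both control groups, and Ifih1, Ifit2, Trim25, Igtp and Iigp1 lie near 0.

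Hearts within a group were not alike. The median over the 41 genes of the log2(CPM + 0.5) difference from the control mean was 0.62, 0.97, 0.74 and 0.90 in cKO replicates 1 to 4. It was -0.08 and 0.18 in the floxed and -0.20 and 0.07 in the Cre hearts. Floxed replicate 2 was the highest control in 27 of the 41 genes and Cre replicate 2 in 12, and each remaining control was highest in 1. Among cKO hearts replicate 2 was highest in 18 genes and replicate 4 in 16, and replicate 1 was lowest in 23. Fewer than 34 of the 41 genes were called higher against the mean of both control groups when some single libraries were left out.

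The steps before these genes were described from lists of ligands, receptors, kinases and sensors. Of 8 interferon genes on the list of ligands (Ifnb1, Ifna2, Ifna4, Ifna5, Ifne, Ifnk, Ifnl2 and Ifnl3) none had a count in any of the 8 libraries, which allows up to 3 counts, or 0.116 to 0.171 CPM before scaling, in a library. Ifng had 1 count in cKO replicate 3 and 1 in Cre replicate 2 and 0 in the other 6 libraries. Of the 6 tested receptor genes 2 rose and 2 fell, where 25.6% of all tested genes rose and 26.5% fell. Their median log2 fold change was 0.04, and without floxed replicate 1 or Cre replicate 1 the called were 2 in all. Ifngr2, a chain of the interferon gamma receptor, was at 197 and 198 CPM in floxed, 154 and 148 CPM in Cre and 91.6, 59.3, 71.8 and 74.2 CPM in cKO hearts, a 2.32-fold fall (log2 -1.22, SE 0.12; edgeR adjusted p = 3.4e-05). Its partner Ifngr1 rose 1.23-fold (edgeR adjusted p = 0.0169), which was not called without floxed replicate 1 or Cre replicate 1 (edgeR adjusted p = 0.0825 and 0.0744). Ifnar1, a chain of the type I receptor, had a log2 fold change of 0.18 without a call (SE 0.08; edgeR adjusted p = 0.0806). It was called higher under upper-quartile scaling, library size alone, the filter at a mean of 1 CPM and the offset (edgeR adjusted p = 0.0113, 0.0265, 0.0445 and 0.007). Ifnar2, the other chain of that receptor, rose 1.17-fold (log2 0.23, SE 0.09; edgeR adjusted p = 0.0459). Its call was lost without cKO replicate 1, 3 or 4, under DESeq2, without the filter on low counts and with the replicate block. It was also lost without any one of the control hearts, where the log2 fold change was 0.20 to 0.25.

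Of 19 kinases, factors and regulators of the signal 5 rose and 8 fell, beside the same 25.6% and 26.5% of all tested genes. Jak1, the kinase used by both interferon types, fell 1.62-fold, from 116 ± 10.1 to 71.2 ± 9.41 CPM (SD, n = 4 each; edgeR adjusted p = 0.000266). Tyk2, its partner at the type I receptor, rose 1.46-fold (edgeR adjusted p = 0.00469), and Irf3, the factor that nucleic acid sensors activate, rose 1.94-fold (edgeR adjusted p = 3.02e-05).

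Of 24 genes of nucleic acid sensing 6 rose and 7 fell, shares close to the 25.6% and 26.5% of all tested genes, and with the offset for length and GC 10 rose and 6 fell. Mavs, the adaptor through which RIG-I and MDA5 signal, fell 1.61-fold, from 59.01 ± 5.87 to 36.5 ± 2.32 CPM (SD, n = 4 each; edgeR adjusted p = 8.18e-05). Tmem173 (STING), the adaptor of DNA sensing, rose 1.57-fold, from 4.32 ± 0.646 to 6.73 ± 0.865 CPM (edgeR adjusted p = 0.00426). Trex1, the nuclease that clears cytosolic DNA, rose 2.08-fold (edgeR adjusted p = 0.000131). Cgas, which makes the messenger for STING, rose 1.79-fold (edgeR adjusted p = 0.0186), and was not called without either floxed replicate or without Cre replicate 1 (edgeR adjusted p = 0.0635, 0.0532 and 0.0687).

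**Figure D5:**
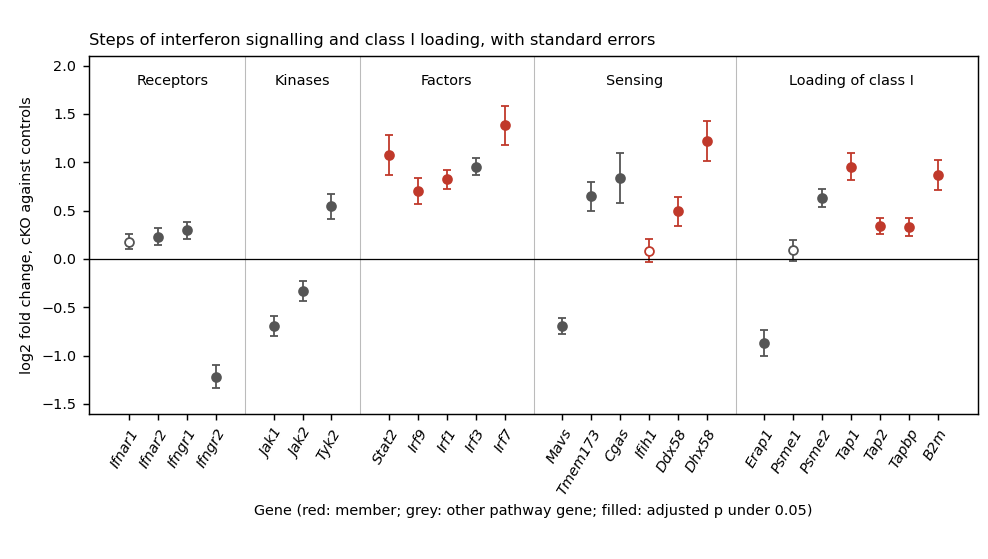
Log2 fold change of cKO against controls (y axis, bars are standard errors) for genes along the pathway (x axis): receptors, kinases, factors, nucleic acid sensing and the loading of class I. Red marks genes of the 41 and grey other pathway genes, filled points have an adjusted p under 0.05 in edgeR, and Ifngr2, Jak1, Mavs and Erap1 lie below 0 while Irf7, Stat2, Dhx58 and Tap1 lie above it.

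Of 72 other interferon-induced genes that could be tested 42 rose and 1 fell, where 25.6% of all tested genes rose and 26.5% fell. Their median log2 fold change was 0.67. Mx1, a GTPase against influenza virus that many laboratory strains carry in a defective form, rose 3.06-fold from a low level, 0.478 ± 0.123 to 1.45 ± 0.525 CPM (SD, n = 4 each; edgeR adjusted p = 0.00342). Uba7, the enzyme that activates ISG15 for conjugation, rose 2.01-fold (edgeR adjusted p = 5.76e-05). Pnpt1, a mitochondrial RNA nuclease, was the 1 that fell, 1.94-fold (edgeR adjusted p = 4.33e-05). Cxcl10, a chemokine induced by interferon gamma, was not called at 0.5096 ± 0.358 and 0.5599 ± 0.297 CPM (SD, n = 4 each; edgeR adjusted p = 0.686). Eif2ak2 (PKR), a kinase switched on by double-stranded RNA, missed the threshold too (log2 -0.35; edgeR adjusted p = 0.0574), but was called as a fall without cKO replicate 3 or floxed replicate 1 (edgeR adjusted p = 0.0375 and 0.0196), without the filter on low counts (0.0309) and with pooled controls (0.0481).

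Of 23 other genes of class I presentation 7 rose and 5 fell, shares close to the 25.6% and 26.5% of all tested genes. The same 25.6% and 26.5% stand beside the counts of class II and inflammatory genes below. H2-T23, a non-classical class I molecule that inhibits natural killer cells, rose 1.98-fold, from 21.4 ± 2.12 to 42.2 ± 4.75 CPM (SD, n = 4 each; edgeR adjusted p = 3.95e-05). Psme2, a subunit of the proteasome activator PA28, rose 1.55-fold (edgeR adjusted p = 0.000297), but was not called with the offset for length and GC (log2 0.15; edgeR adjusted p = 0.14). Its partner Psme1 had a log2 fold change of 0.09 (edgeR adjusted p = 0.504), which was below 0 with the offset. Erap1, the peptidase that trims peptides in the endoplasmic reticulum, fell 1.83-fold, from 28.1 ± 1.13 to 15.4 ± 3.01 CPM (SD, n = 4 each; edgeR adjusted p = 0.000283). Canx (calnexin), which folds new class I chains, fell 1.74-fold (edgeR adjusted p = 8.77e-05). Of 10 class II genes 4 rose and 1 fell. Cd74 and H2-Ab1 were among those that rose, 1.65-fold and 1.79-fold (edgeR adjusted p = 0.00146 and 0.00387), and were not called with the offset (edgeR adjusted p = 0.19 and 0.262). Ciita was the 1 that fell. Its call was lost in several settings, among them upper-quartile scaling and the offset (log2 -0.83 and -0.85, edgeR adjusted p = 0.0657 and 0.0635). Without cKO replicate 3 or Cre replicate 1, 3 class II genes were called in all. Of 15 genes of NF-kB and inflammatory cytokines 0 rose and 3 fell in edgeR, while 1 was called without cKO replicate 2 or 3 or either floxed replicate and 0 without Cre replicate 1.

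Markers of other cell types were summed and counted in the same fit. Each count below stands beside the 25.6% of all tested genes that rose and the 26.5% that fell. Summed over 16 leukocyte and macrophage markers, the level was 408 to 520 CPM in cKO and 270 to 342 CPM in control hearts, and 7 of the 16 rose. Ptprc (CD45), carried by all leukocytes, was not called at 8.03 ± 2.49 and 10.2 ± 1.94 CPM (SD, n = 4 each; edgeR adjusted p = 0.103), and was called higher without cKO replicate 4 or Cre replicate 1 (edgeR adjusted p = 0.0489 and 0.0342). It was also called under upper-quartile scaling, library size alone and the offset (edgeR adjusted p = 0.0481, 0.0368 and 0.00697). The 13 endothelial markers summed to 2050 to 2913 CPM in cKO and 1348 to 1667 CPM in control hearts, with 10 higher and 1 lower. The 11 fibroblast markers summed to 1251 to 1833 CPM and 944 to 1343 CPM, with 4 higher, and Cre replicate 1 lay above cKO replicates 1 to 3. Of the 3 tested dendritic cell markers 1, Clec9a, rose, and of the 5 tested lymphocyte and natural killer markers 0 were called. Lymphocyte markers summed to 3.06 to 5.26 CPM in cKO and 2.48 to 4.42 CPM in 3 control hearts, but to 18.6 CPM in Cre replicate 1, where Cd4 and Cd8a stood at 6.72 and 6.99 CPM. The 12 cardiomyocyte markers summed to 54777 to 66159 CPM in cKO and 70166 to 75611 CPM in control hearts, and 3 rose and 5 fell, or 0 and 7 with the offset. No marker of these 6 lists was at 0 in all 8 libraries. The part of these markers in the rise of the 41 genes was not tested.

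Called higher in the fit above and in all 19 alternatives to it were 25 genes: Psmb8, Psmb9, Psmb10, Tap1, B2m, H2-K1, H2-D1, Irf1, Irf7, Irf9, Stat2, Dhx58, Oasl2, Oas1a, Oas2, Ifit3, Rsad2, Bst2, Isg15, Usp18, Gbp3, Xaf1, Ifi27, Ifi35 and Rtp4. The 41 genes had a median longest transcript of 2682 bases and a GC content of 50.93%, where the 13744 tested coding genes had 3438 bases and 49.93%. With a per-library offset for length and GC 34 genes rose (22.5% of all tested genes), of which 31 were the same, and the median log2 fold change was 0.71. Ifih1, Trim25 and Gbp7 were gained and Tap2, Tapbp and Lgals3bp lost. Psmb10 had a log2 fold change of 0.99 without and 0.50 with the offset. Upper-quartile scaling and library size alone moved the median log2 fold change of all genes from 0.04 to 0.16 and 0.17, and the share of calls that were higher from 49.1% to 59.3% and 61.5%, and with either scaling 35 of the 41 genes rose (31.9% and 31.1% of all tested genes).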

How the data were processed

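RNA from 8 hearts was sequenced. Listed as tools, per the submitters' processing notes, are DESeq2 and STAR 2.5.1b, with mm10 (GRCm38) as the mouse build. The deposited table holds estimated counts that the authors made for each gene, with 71.95% to 76.34% of values whole within 1e-06. Which counter, annotation and strand setting were used: not given in the sources used here. Values were rounded to whole counts. After edgeR's low-count filter 15289 genes stayed, library sizes were scaled by trimmed means of M values, and 3 group means were fitted with edgeR's robust quasi-likelihood test on 5 residual degrees of freedom. P-values were adjusted by Benjamini-Hochberg over all 15289 genes at a threshold of 0.05. The members and lists were chosen with earlier results of these data known. The text describes every member. A set of pathway genes was also picked, with up to 4 called genes per other list. Those 4 had the smallest p and a mean of at least 1 CPM. Of these further genes the text describes some, not all. Scripts used R 4.3.3 with edgeR 4.0.16, limma 3.58.1, DESeq2 1.42.0 and mgcv 1.9.3, and Python 3.11.15 with pandas 2.3.3, scipy 1.17.1 and matplotlib 3.10.9, and the fit was checked on simulated data. Alternatives were other scalings, filters and tools, a replicate block, pooled controls, an offset for length and GC, and leaving out each library. Overlaps, lengths and GC come from a gene annotation of build GRCm38, and promoters from RefSeq windows of GRCm38.p6. One gene of the signalling list is not reported here.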

Additional observations from a re-analysis of the deposited data

Results flagged for a closer look

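In 102 groups of 4 cKO hearts, 1 per gene, the gap between the highest or lowest heart and its nearest neighbour was compared with the whole range, and in 7 the share was above the critical value of Dixon's test at the 95% level. Chance alone gives about 1 in 20 such groups. H2-K1 was at 268.2 CPM in cKO replicate 2, where the others were at 186.9 to 196.8 CPM. Igtp was at 15.02 CPM in the same heart and at 11.27 to 11.63 CPM in the others. Dhx58 was at 2.683 CPM in cKO replicate 1, against 3.425 to 3.542 CPM. Gbp2 was at 14.85 CPM in cKO replicate 4, against 19.48 to 20.36 CPM. Jak2 was at 16.98 CPM in that heart, against 21.24 to 21.88 CPM, and Elmsan1 was at 12 CPM there, against 15.2 to 15.51 CPM. Stat5b was at 48.42 CPM in cKO replicate 3, against 51.3 to 51.87 CPM.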

How the results depend on the processing

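The contrast with the mean of both control groups was refitted over scalings, filters, tools, the replicate block, pooled controls and the offset. Between 31 and 35 of the 41 genes were then called higher, where 15.1% (without the filter) to 31.9% (upper-quartile scaling) of all tested genes were. Leaving out some single libraries gave fewer. Without floxed replicate 1, and also without Cre replicate 1, the calls of Tapbp, Nlrc5, Ddx58, Ifit1, Gbp2, Ifi44, Parp14 and Lgals3bp were lost. Leaving out each library gave 8 to 29 against floxed, 16 to 30 against Cre and 0 for Cre against floxed, where 8 was without floxed replicate 1 and 16 without Cre replicate 1, fits with 1 control heart in that group. In the fits without a cKO heart 17.9% to 21.3% of all tested genes rose against floxed, and 17.6% to 20.3% against Cre. The median log2 fold change of the 41 genes ran from 0.75 to 0.97 without a library. With the offset for length and GC the ratio differences were 1.06 for Psmb8 to Psmb5, 0.61 for Psmb9 to Psmb6 and 0.43 for Psmb10 to Psmb7, and without a library they ran from 0.54 to 0.68, 0.22 to 0.47 and 0.97 to 1.17. The labels do not say whether same-numbered hearts are paired. Correlations of deviations between same-numbered hearts of different groups ran from -0.108 to 0.133. With 2 hearts in a control group the deviations mirror each other, so these values cannot exclude a pairing. By sample title, numbers 3 and 4 occur in cKO only, and the library names number the floxed hearts otherwise. With the replicate block 31 genes were called higher against the mean of both control groups (19.7% of all tested genes), 29 against floxed (15.6%) and 31 against Cre (15.5%). Against the mean of both control groups that fit did not call Tapbp, Ddx58, Ifi44 and Lgals3bp (edgeR adjusted p = 0.16, 0.0576, 0.0539 and 0.12) and called Gbp7 (log2 0.67; edgeR adjusted p = 0.00212). Numbers 3 and 4 mark 1 cKO heart each, which the block fits exactly, so its contrasts rest on cKO replicates 1 and 2 and the controls. The cause of these moves was not tested.

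Reversals of direction against the mean of both control groups were in genes that were not called. Ifit2 was at -0.0065 without the filter and -0.1151 to 0.1297 without a library, Trim25 at -0.0066 to 0.0928, Igtp at -0.0456 with the offset and -0.136 to 0.1983 without a library, and Iigp1 at 0.0746 with the replicate block and -0.3746 to 0.0674 without a library. Psmb7 was at 0.0397 under upper-quartile scaling, 0.0607 under library size alone and 0.0613 with the offset, and Psme1 at -0.0225 with the block and -0.2491 with the offset. Against floxed, Ifih1 was at 0.0713, 0.0880 and 0.2744 under upper-quartile scaling, library size alone and the offset and -0.1302 to 0.0022 without a library. Without a library Nlrc5 ran from -0.0202 to 0.9655, Ifit2 from -0.0543 to 0.1496, Igtp from -0.5332 to 0.1496 and Iigp1 from -0.6956 to 0.2014 against floxed. Against Cre, Ifit2 was at 0.0811, 0.1023 and 0.2260 under the same 3 settings, 0.0028 with the filter at 1 CPM, 0.0083 with the block and -0.2608 to 0.2284 without a library. Trim25 was at 0.0484, 0.0633 and 0.2231, and Iigp1 at 0.0463, 0.0531 and 0.1411, at 0.1766 with the block and at -0.235 to 0.0991 without a library. The cause of these reversals was not tested. Low counts limit Nlrc5, Zbp1, Oas1a, Dhx58, Isg15, Usp18 and Ifi44, each under 10 CPM in every heart.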
